A study of Mus musculus with 24 samples.

Results

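The genes described here have symbols of families that interferons induce, or of factors that carry or regulate the interferon signal. Not every one of these genes need respond to interferon. They were chosen by symbol, as the protein-coding genes whose mouse symbol starts with Ifi and a digit, Ifit (which takes in Ifitm), Irf and a digit, Irgm, Oas, Gbp, Isg or Stat and a digit, or is Ifih1, Mx1, Mx2 or Rsad2. Of the 55487 gene identifiers with counts, 55227 matched an entry of the GENCODE M21 annotation, and 79 of its 21974 protein-coding genes met this rule. Of those 79 members, 11 belong to the Ifi200 group (Ifi202b to Ifi214, Ifi205 included), 11 are Oas synthetases, 10 guanylate-binding proteins, 9 Irf factors, 7 Stat factors, 7 Ifitm and 6 Ifit genes. The others are 3 genes for Irf2-binding proteins, 2 Irgm GTPases, Mx1, Ifih1 and 11 further genes such as Isg15, Ifi27 and Rsad2. The pattern also fitted 6 symbols that are not annotated as protein-coding, among them Mx2, Gbp11 and Oas1b, and these were left out.

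Poly(A) RNA was sequenced from the tibialis anterior (TA) muscle of 24 male C57BL/6J mice aged 5 to 7 weeks, in 4 groups of 6. Photobiomodulation therapy (PBMT) was light from 830 nm diodes on the shaved hind limbs under anaesthesia for 20 min, at 30 J/cm². Sedentary PBMT mice were killed 24 h after the light, and fatigued PBMT mice instead ran on a treadmill to exhaustion 24 h after it and were killed directly afterwards. Sedentary control and fatigued control mice were shaved and anaesthetised and received no light. All 24 mice thus shared the strain, the sex, the shaving and the anaesthesia, and no control group received other light or heat. Sequencing was done in separate projects for sedentary and for fatigued mice, so exhaustion and project cannot be told apart in any comparison between them. The total count per mouse ran from 43271093 to 46904076 in sedentary control, 46327516 to 52775844 in sedentary PBMT, 56792327 to 68726155 in fatigued control and 53122528 to 68566029 in fatigued PBMT muscle. The tissue label was checked against 8 genes of skeletal muscle fibres, all with counts, whose levels summed to between 123200 and 205600 CPM (counts scaled by each library's normalised total) in a mouse, with Myh4 the most abundant.

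A pair of libraries stood apart from their groups. In sedentary control 4, mitochondrial genes took 3.25% of the counts, against 13.9% to 17.1% in the other sedentary mice and 10.5% to 12.9% in the 12 fatigued mice. Apart from sedentary control 4, this share thus separated the projects without overlap. Sedentary control 4 and fatigued PBMT 5 lay 0.501 and 0.509 log2 units from their group means over the tested genes, and the other mice lay 0.304 to 0.407 away. Fits without these libraries were run beside the main ones.

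Interferons bind receptors whose Janus kinases phosphorylate Stat proteins. Type I interferons act through a complex with Stat2 and Irf9 that binds interferon-stimulated response elements. The induced genes include RNA sensors, Oas synthetases, GTPases of the Gbp and Irgm families and the Ifi200 group, whose pyrin and HIN domains serve in nucleic acid sensing and transcriptional control, mostly in immune cells. Some members carry other signals as well: Stat3 responds to interleukin 6 and related cytokines, Stat5a and Stat5b to growth hormone and other cytokines, and Stat6 to interleukin 4.

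The levels of the members in TA muscle spanned a wide range on the scale of CPM per kb of exon, which allows genes to be compared. The mean over all 24 mice was 42.9 CPM per kb for Stat5b, 33.9 for the membrane-bound antiviral gene Ifitm3, 11.2 for Ifitm2, 10.1 for Ifi27 and 7.03 for Stat3. The most abundant gene of further families was Irf2bpl with 6.46, Irf5 with 5.95, the GTPase gene Irgm2 with 4.02, Gbp2 with 2.69 and Ifit3 with 2.27 CPM per kb. Ifi205 led the Ifi200 group with 2.09 CPM per kb, ahead of Ifi207 with 1.78, Ifi211 with 1.42, Ifi204 with 1.39 and Ifi203 with 0.894. The RNA sensor Ifih1 had 0.523, the most abundant Oas gene Oasl2 had 0.398, and the antiviral GTPase gene Mx1 had 0.0270 CPM per kb. Stat and Ifitm genes thus gave the highest levels, and most Ifi200, Oas and Gbp genes were low-abundance transcripts in this tissue.

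Of the 79 members, 59 passed the filter on low counts in the fit of all mice and 20 did not. Ifitm7, Oas1d and Oas1h had a count of 0 in every mouse, which allows a level of up to 0.0662 CPM in the mouse with the smallest normalised total, counting error alone. Oas3 had the largest total among the untested members, 175 counts over all mice. Ifi208 and Ifitm6 were tested in the fit of all mice but in neither project alone, and Oas1c was not tested in the fatigued mice alone.

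The interferon ligands were nearly without counts: of 21 ligand genes, 18 were at 0 in all 24 mice. Ifna7, Ifnz and Ifng, which encodes interferon gamma, had 1 count each over the 24 libraries. None of the ligand genes passed the filter of edgeR, and in DESeq2, which filters by itself, at most 3 were tested in a comparison.

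Ifi205, which encodes a pyrin and HIN domain protein of the Ifi200 group, is gene ENSMUSG00000054203 at chr1:174011998-174031810 on the minus strand of GRCm38. Its level was 4.59 CPM in the lowest, 8.04 in the median and 10.0 in the highest sedentary control mouse (mean 7.85 ± 2.01, SD, n = 6). With PBMT the sedentary values were 2.85, 4.07 and 5.31 CPM (mean 4.06 ± 0.895, SD, n = 6). In fatigued control muscle they were 8.47, 9.55 and 13.0 CPM (mean 10.1 ± 1.74, SD, n = 6), and in fatigued PBMT muscle 8.83, 12.1 and 18.8 CPM (mean 12.9 ± 4.23, SD, n = 6). Sedentary PBMT was thus the lowest group: 4 of its 6 mice lay below every sedentary control, and the overlap came from sedentary control 4, the lowest control. The neighbouring groups sedentary control, fatigued control and fatigued PBMT overlapped with each other, and the highest value belonged to fatigued PBMT 5.

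**Figure D1:**
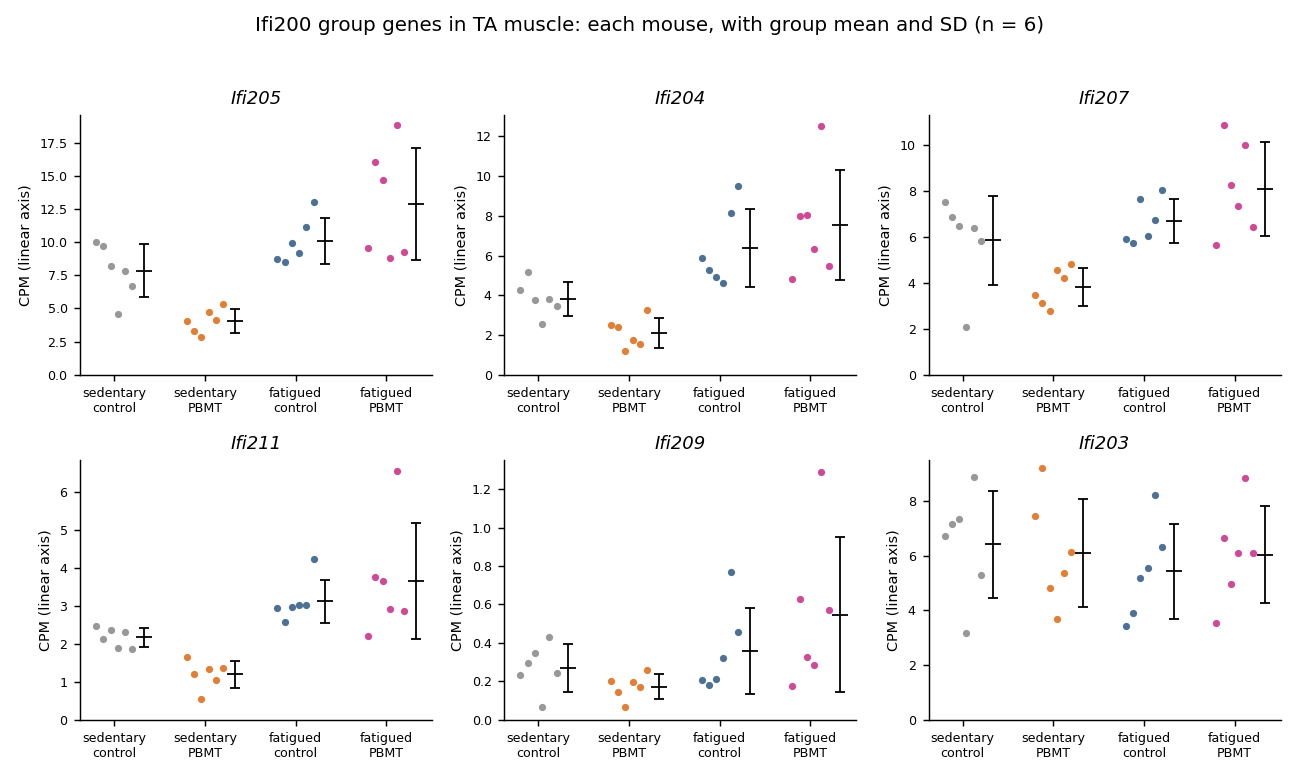
Level in CPM of Ifi205, Ifi204, Ifi207, Ifi211, Ifi209 and Ifi203 in each of the 24 mice, by group. Points are mice, and the bar and whiskers are the mean and SD of 6 mice. For Ifi205 the sedentary PBMT mice lie between 2.85 and 5.31 CPM and the fatigued PBMT mice between 8.83 and 18.8 CPM.

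Ifi204 encodes a nuclear protein of the same group that can sense DNA. Its lowest, median and highest levels were 2.57, 3.78 and 5.14 CPM in sedentary control muscle and 1.18, 2.06 and 3.26 CPM in sedentary PBMT muscle. They were 4.62, 5.57 and 9.48 CPM in fatigued control and 4.80, 7.18 and 12.5 CPM in fatigued PBMT muscle. The lowest sedentary control value was again that of mouse 4, and 5 of 6 sedentary PBMT mice lay below it.

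Ifi211, a further pyrin and HIN gene of the cluster, had 1.88, 2.22 and 2.47 CPM (lowest, median, highest) in sedentary control and 0.558, 1.27 and 1.64 CPM in sedentary PBMT muscle. In fatigued muscle it had 2.57, 2.99 and 4.22 CPM in control and 2.204, 3.29 and 6.54 CPM in PBMT mice. Here all 6 sedentary PBMT mice lay below all 6 sedentary controls, while the fatigued groups overlapped. Ifi207 had 2.09, 6.41 and 7.53 CPM in sedentary control, 2.75, 3.82 and 4.83 CPM in sedentary PBMT, 5.75, 6.38 and 8.02 CPM in fatigued control and 5.64, 7.78 and 10.9 CPM in fatigued PBMT muscle. For Ifi207 the lowest of all 24 values was that of sedentary control 4, so its sedentary groups overlapped, and the other 5 sedentary controls lay above every sedentary PBMT mouse.

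Ifi209 was scarce, with 0.0659, 0.268 and 0.430 CPM in sedentary control, 0.0644, 0.183 and 0.259 CPM in sedentary PBMT, 0.181, 0.267 and 0.767 CPM in fatigued control and 0.176, 0.451 and 1.29 CPM in fatigued PBMT muscle. Ifi203 had medians of 6.94, 5.75, 5.36 and 6.09 CPM in the same order, and its values ran from 3.18 to 9.19 CPM over the 24 mice with all groups overlapping. The other 5 genes of the group, Ifi202b, Ifi206, Ifi208, Ifi213 and Ifi214, had between 6 and 230 counts over all mice. Only Ifi208 among them passed the filter, and only in the fit of all 24 mice.

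The summed level of the 11 Ifi200 genes was 14.4, 29.5 and 31.6 CPM (lowest, median, highest) in sedentary control and 12.4, 18.1 and 21.4 CPM in sedentary PBMT muscle. In fatigued control it was 26.8, 30.0 and 42.2 CPM, and in fatigued PBMT 26.0, 36.1 and 58.8 CPM. All 12 fatigued mice lay above all 6 sedentary PBMT mice in this sum, and sedentary control 4 was the only sedentary control below the highest of them. From RNA of whole muscle, fewer cells of a type and less RNA of a gene per cell cannot be told apart.

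The first question of the study was what PBMT alone did to resting muscle. Among 14177 genes tested in the 12 sedentary mice with the edgeR quasi-likelihood test and Benjamini-Hochberg adjustment, 3 were higher with PBMT at adjusted p under 0.05 (0.0212%) and 1 was lower (0.00705%). Of the 57 members tested, 0 passed in edgeR, whereas DESeq2 called 3 of 60 (5%), namely Ifi204, Ifi205 and Ifi211, all lower with PBMT. Over all 15938 genes tested in DESeq2, 22 were higher (0.138%) and 38 lower (0.238%). At an unadjusted p under 0.05, 5 members were lower, beside 4.3% of all genes, and 1 was higher, beside 3.33% of all genes. The p-values set the difference between groups against the spread between mice of a group. Of the members, 17 had a positive and 40 a negative log2 fold change, with a median of −0.10, against a median of 0.00 over all genes tested.

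All 6 tested Ifi200 genes had negative log2 fold changes with PBMT in sedentary muscle, with a median of −0.74, and all 6 were also negative in DESeq2. For Ifi205 the log2 fold change was −0.95 ± 0.18 (SE), lower than every control in 4 of 6 mice, with an unadjusted p of 9.58e-05 and an edgeR adjusted p of 0.0896, which missed the threshold. An exact permutation test over the 924 arrangements of the 12 mice, on log2 CPM and two-sided, gave p = 0.00649. Permutation tests here and below were run for Ifi205 alone, without adjustment for the choice of gene. Without sedentary control 4, the value of Ifi205 was −1.06 with an edgeR adjusted p of 0.00999, and that of Ifi207 was −0.79 with an edgeR adjusted p of 0.0380, so 2 members passed. With no filter on low counts Ifi205 passed as well, at an edgeR adjusted p of 0.0455, and in DESeq2 its adjusted p was 6.15e-04. The PBMT effect on Ifi205 thus kept its direction in these fits and changed its side of the threshold with the tool, the filter and 1 library.

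Ifi211 had a log2 fold change of −0.86 ± 0.20 (SE) with an edgeR adjusted p of 0.228 and a DESeq2 adjusted p of 0.00955. It was the only tested member whose sedentary groups did not overlap in the lower direction, beside 0.275% of all genes tested. Ifi204 had −0.86 with an edgeR adjusted p of 0.296 and a DESeq2 adjusted p of 0.0349. Ifi207 had −0.61, Ifi209 had −0.62 and Ifi203 had −0.07, none of which passed in edgeR or DESeq2 with all mice. The sign for Ifi203 changed to 0.04 without sedentary control 5 and to 0.04 without sedentary PBMT 4. Of 12 protein-coding genes between the ends of the Ifi200 cluster, the only one outside the rule is Mndal, whose log2 fold change was 0.08 (edgeR adjusted p 0.920).

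Outside the Ifi200 group no member passed for PBMT in sedentary muscle, in edgeR or in DESeq2. Gbp5, a guanylate-binding protein of inflammasome control, had the largest positive log2 fold change, 0.51, from a median of 2.16 CPM in sedentary control to 3.36 CPM in sedentary PBMT (edgeR adjusted p 0.538). Irf4, a lymphoid and myeloid factor, had −0.56 (edgeR adjusted p 0.648). Among the factors of the type I pathway, Stat2 had −0.02, Irf9 −0.18, Irf7 −0.33 and Irf3 −0.27, none of them past the threshold. Isg15, a ubiquitin-like modifier, had −0.46, the antiviral gene Rsad2 −0.01 and Ifih1 −0.10. Single mice carried much of these values: without sedentary control 4 Irf3 had −0.04, without sedentary control 5 Irf7 had −0.08 and Isg15 −0.23, and without sedentary control 2 or sedentary PBMT 6 Irf9 had −0.09. The 4 tested Ifit genes had a median log2 fold change of −0.09 and the 5 tested Oas genes one of −0.33, while the 8 tested Gbp genes had a median of 0.12.

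**Figure D2:**
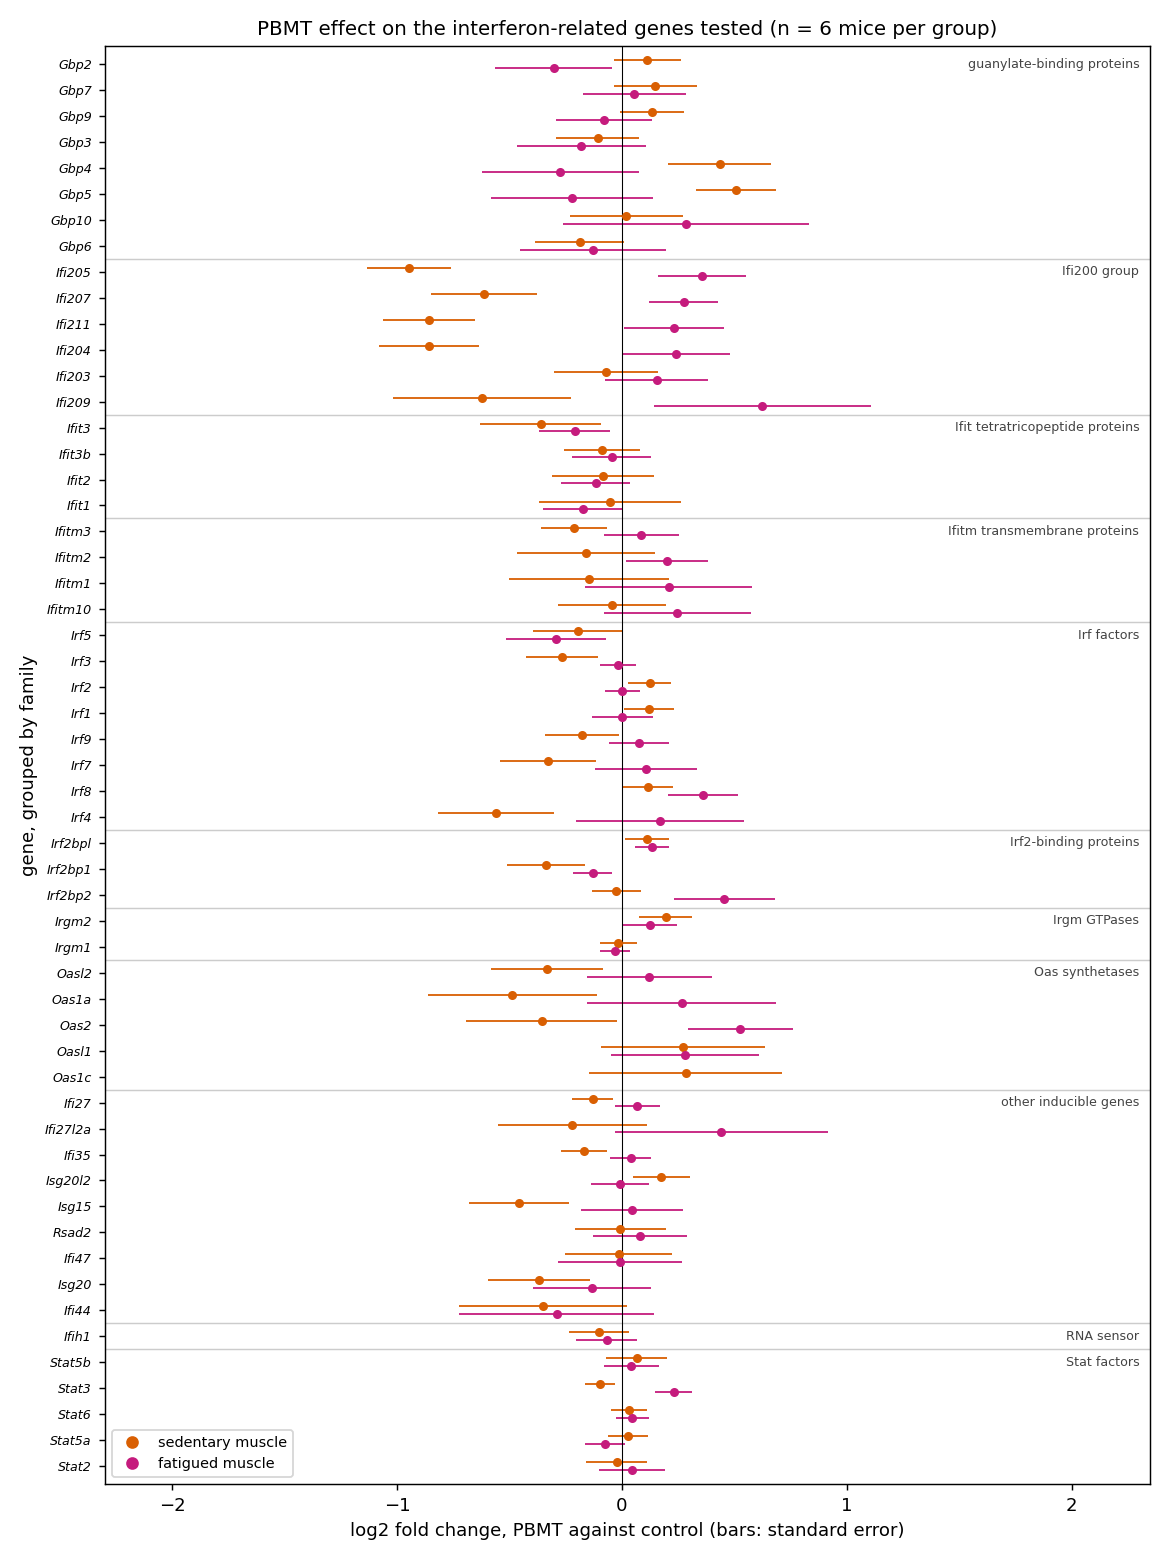
Log2 fold change with PBMT of members tested in sedentary muscle and in fatigued muscle, not all of which are drawn. Points are edgeR estimates and whiskers the SE. The 6 tested Ifi200 genes lie below 0 in sedentary muscle, at a median of −0.74, and above 0 in fatigued muscle, at a median of 0.26.

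The second question was whether light before exhaustive running changed the muscle of fatigued mice. None of the 14574 genes tested in the 12 fatigued mice passed in edgeR (0% higher, 0% lower). At an unadjusted p under 0.05, 157 genes were higher (1.08%) and 73 lower (0.501%). Among 56 members tested, 0 passed in edgeR and 0 in DESeq2, and 3 members were higher and 1 lower at an unadjusted p under 0.05. Their median log2 fold change was 0.05, against 0.00 over all genes tested, and without fatigued PBMT 5 the members' median was −0.03.

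The 3 higher members were Stat3 with a log2 fold change of 0.23, Irf8, a factor of macrophages and dendritic cells, with 0.36, and Oas2, an RNA-activated synthetase, with 0.53. Stat3 had 72.1, 78.9 and 99.1 CPM (lowest, median, highest) in fatigued control and 86.6, 92.6 and 112 CPM in fatigued PBMT muscle, so the groups overlapped.

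For the Ifi200 group the fatigued comparison gave positive values for all 6 tested genes, with a median log2 fold change of 0.26. Ifi205 had 0.35 (unadjusted p 0.0908, edgeR adjusted p 1.00; exact permutation p = 0.184, two-sided). Several of these values leaned on fatigued PBMT 5. Without that mouse Ifi205 had 0.21, Ifi204 moved from 0.24 to 0.03, Ifi209 from 0.62 to 0.17, Ifi203 from 0.15 to 0.01 and Ifi211 from 0.23 to −0.02. Ifi207 had 0.28, or 0.17 without fatigued PBMT 2.

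Whether PBMT acted differently after exhaustion than at rest was tested as an interaction in the fit of all 24 mice, as the effect in fatigued minus that in sedentary muscle. Among 15108 genes tested, 1 had a more positive effect in fatigued muscle at an edgeR adjusted p under 0.05 (0.00662%) and 0 a more negative one (0%). At an unadjusted p under 0.05 the shares were 2.95% and 1.45% of genes. Of 59 members tested, 0 passed in edgeR and 0 in DESeq2, and 6 were more positive and 1 more negative at an unadjusted p under 0.05. The members' median difference was 0.11 log2 units, against 0.02 over all genes tested.

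The 6 were Ifi205, Ifi204, Ifi207, Ifi211, Stat3 and Oas2. For Ifi205 the difference was 1.30 ± 0.28 (SE) log2 units, with an unadjusted p of 9.14e-05 and an edgeR adjusted p of 0.430. Its adjusted p lay between 0.0503 in DESeq2 and 0.895 with no filter, and in fits that left out 1 mouse between 0.141, without sedentary control 4, and 0.989. The differences were 1.10 for Ifi204, 1.09 for Ifi211, 0.89 for Ifi207, 0.88 for Oas2 and 0.33 for Stat3. The largest positive difference of a member was 1.70 for Ifitm6 (edgeR adjusted p 0.946; 0.53 without fatigued PBMT 5), at few counts, and Gbp5 and Gbp4 had −0.72 and −0.70, or −0.40 and −0.27 without fatigued control 5. The 10 macrophage and monocyte markers described below were all positive in this comparison as well, with a median of 0.86 (0.53 without fatigued PBMT 5), and 4 had an unadjusted p under 0.05 while 0 passed in edgeR and 0 in DESeq2. A change of the PBMT effect on the Ifi200 genes with exhaustion therefore did not pass the test over all genes.

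Fatigued control muscle was compared with sedentary control muscle, that is, without light. Exhaustive running and sequencing project changed together in this comparison. Among 15108 genes tested with edgeR, 1375 were higher (9.1%) and 1434 lower (9.49%) in fatigued muscle at adjusted p under 0.05. Of 59 members, 7 rose and 1 fell, which is 11.9% and 1.69% of the members tested. The members' median log2 fold change was 0.19, against −0.01 over all genes tested. Groups did not overlap in the higher direction for 4 members, Stat3, Irf1, Stat6 and Ifi211, beside 4.08% of all genes, and in the lower direction for 1 member, Stat5a, beside 3.63%.

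Stat3 had 41.1, 47.3 and 53.4 CPM (lowest, median, highest) in sedentary control and 72.1, 78.9 and 99.1 CPM in fatigued control muscle. Every fatigued control mouse lay above every sedentary control. Its log2 fold change was 0.78 ± 0.08 (SE), with an edgeR adjusted p of 2.57e-07. Irf1, an early factor of the interferon response, had 5.38, 6.81 and 8.00 CPM against 9.59, 11.0 and 13.6 CPM, again without overlap, and rose by 0.71 log2 units (edgeR adjusted p 4.04e-04). Irf2bp2, which encodes a corepressor that binds Irf2, had 13.5, 13.7 and 21.01 CPM against 20.1, 23.4 and 25.1 CPM and rose by 0.61 (edgeR adjusted p 0.0215). Its overlap came from sedentary control 4, the highest control, and 20.5% of its exon length overlaps the antisense gene Gm26759.

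Further members that rose were Ifi204 by 0.73 (edgeR adjusted p 0.0338), Ifi35 by 0.29 (0.0411), Irf2, a repressor of Irf1 targets, by 0.26 (0.0337) and Stat6 by 0.25 (0.0231), in log2 units. Stat5a fell, with a log2 fold change of −0.27 (edgeR adjusted p 0.0381), and its 6 fatigued values, 8.52 to 10.4 CPM, lay below the 6 sedentary ones, 10.6 to 14.3 CPM. Stat3, Irf1 and Irf2bp2 passed in all 24 fits that left out 1 mouse. Stat6 missed only without sedentary control 5, at an edgeR adjusted p of 0.0579.

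The remaining calls in control muscle were less steady when 1 mouse was left out. Ifi204 passed in 18 of these 24 fits, and its edgeR adjusted p was 0.0955 without fatigued control 6, 0.0748 without fatigued control 5, 0.0564, 0.0648, 0.0603 and 0.0643 without sedentary controls 3, 4, 5 and 6. Irf2 passed in 19 fits, with edgeR adjusted p of 0.0737, 0.0672 and 0.0654 without fatigued controls 1, 2 and 5, and of 0.0558 and 0.0624 without sedentary controls 1 and 4. Ifi35 passed in 16 fits, with edgeR adjusted p of 0.0622, 0.0752 and 0.0962 without fatigued controls 1, 3 and 5 and between 0.0517 and 0.0978 without any of sedentary controls 1, 2, 3, 5 and 6. Stat5a passed in 12 fits, and its largest edgeR adjusted p was 0.0952 without fatigued control 1. It also missed without fatigued control 5 or 6, fatigued PBMT 3 or 4, sedentary control 2 or 4 and sedentary PBMT 1, 3, 4, 5 or 6. Ifi211, with a log2 fold change of 0.52, passed in 1 of these fits, without fatigued PBMT 5, at an edgeR adjusted p of 0.0394.

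Ifi205 was not called between fatigued and sedentary control muscle: its log2 fold change was 0.36 with an edgeR adjusted p of 0.211 (exact permutation p = 0.0649, two-sided). Ifi207 had 0.19 and Ifi209 had 0.40, Ifi208 had 0.83 on few counts, and Ifi203 had −0.24. Without sedentary control 4 these values were 0.01 for Ifi207, 0.20 for Ifi209, 0.57 for Ifi208 and −0.38 for Ifi203. Without fatigued control 5 Ifi209 had 0.03 and Ifi203 −0.40, without fatigued control 2 Ifi208 had 0.55, without sedentary control 5 it had 1.39, and Ifi203 had −0.14 without fatigued control 1 and −0.13 without sedentary control 5. Of the type I factors Irf9 had 0.31, Stat2 0.27 and Irf7 0.02, and none of these passed. Without fatigued control 5 they had 0.20, 0.16 and −0.11. With all mice, Ifi204 was the only gene of the Ifi200 group called here by edgeR and by DESeq2, which called 10 of 66 members (15.2%) beside 9.25% of all genes higher and 8.8% lower. In an edgeR fit of only the 12 control mice Ifi211 passed as well, with 0.53 (adjusted p 0.0181). The largest change among the members was negative, −1.83 for Ifitm6 (edgeR adjusted p 0.120), which had medians of 0.301 CPM in sedentary and 0.0545 CPM in fatigued control muscle. It passed without fatigued control 5, with −2.89 (0.0274). Ifi44 had −0.54 and Irf5 −0.48, neither past the threshold, or −0.33 without sedentary control 5 and −0.36 without fatigued control 1. Gbp10 had the largest positive log2 fold change, 1.06, without passing, and 73.5% of its 100-base stretches also occur in another gene, most of them in Gm43302.

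Fatigued PBMT muscle was compared with sedentary PBMT muscle in the same fit. Among the 15108 genes tested with edgeR, 2135 were higher (14.1%) and 1916 lower (12.7%) at adjusted p under 0.05. Of 59 members, 14 rose (23.7%) and 3 fell (5.08%). The members' median log2 fold change was 0.27, against 0.00 over all genes tested. Groups did not overlap in the higher direction for 10 members, beside 5.98% of all genes, and 4 of those 10 were Ifi205, Ifi204, Ifi211 and Ifi207. This comparison shares no mice with the one between controls, and it shares each of its groups with a PBMT comparison above. As the paper reports longer runs with PBMT, it may also differ from the comparison between controls in run time.

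The Ifi200 group accounted for 5 of the 14 members that rose. Ifi205 rose by 1.66 ± 0.20 (SE) log2 units with an edgeR adjusted p of 1.97e-06, and all 6 fatigued mice lay above all 6 sedentary ones. The exact permutation p was 0.00216, two-sided, the smallest that 924 arrangements can give. Ifi204 rose by 1.84 (edgeR adjusted p 8.02e-06), Ifi211 by 1.61 (8.92e-06) and Ifi207 by 1.08 (5.75e-04), each in 6 of 6 mice, and these genes and Ifi205 passed in all 24 fits that left out 1 mouse. Ifi209 rose by 1.66 (edgeR adjusted p 0.00986), and without fatigued PBMT 5 it had 1.19 and missed the threshold (0.0531). Ifi208, at 0.33 with all mice and −0.26 without fatigued PBMT 6, and Ifi203, at −0.02, were not called. Ifi203 changed sign without fatigued PBMT 1 (0.10), fatigued PBMT 3 (0.03), sedentary PBMT 1 (0.05) or sedentary PBMT 2 (0.13).

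Stat3 had 41.4, 43.8 and 47.1 CPM in sedentary PBMT muscle, below all fatigued PBMT values, and rose by 1.12 ± 0.08 (SE) log2 units (edgeR adjusted p 2.64e-10). Irf1 had 6.03, 7.23 and 8.79 CPM against 9.16, 10.3 and 16.5 CPM and rose by 0.60 (edgeR adjusted p 0.00120). Irf2bp2 rose by 1.10, from 12.8, 14.8 and 16.2 CPM to 20.7, 27.9 and 60.7 CPM, and the last value, of fatigued PBMT 3, was far above the others. Without that mouse its log2 fold change was 0.81. Oas2 had 0.355, 0.544 and 0.838 CPM against 1.06, 1.55 and 1.71 CPM, without overlap, and rose by 1.33 (edgeR adjusted p 0.00157). None of the other 4 tested Oas genes passed.

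Smaller rises were 0.57 log2 units for Irf9 (edgeR adjusted p 0.00736), 0.50 for Ifi35 (5.01e-04), 0.41 for Irf8 (0.0255) and 0.27 for Stat6 (0.0102). Irf8 missed the threshold without fatigued PBMT 4 (0.0545) or 5 (0.0830) and without sedentary PBMT 1 (0.0648) or 2 (0.0507). Gbp10 rose by 1.33 (edgeR adjusted p 0.0290), with 4 of 6 fatigued mice above every sedentary one and 1 below all of them, and missed the threshold without fatigued PBMT 4 (0.105) or 6 (0.0708) and without sedentary PBMT 1 (0.0569), 3 (0.0538) or 4 (0.0619). Among the 3 members that fell, Stat5a had a log2 fold change of −0.36 (edgeR adjusted p 0.00382) and Gbp9 one of −0.51 (0.0457). Gbp9 passed in 11 of the 24 fits that left out 1 mouse, and its largest edgeR adjusted p was 0.110 without fatigued PBMT 3. It also missed without fatigued PBMT 1 or 4, fatigued control 3 or 6, sedentary control 2, 3, 5 or 6 and sedentary PBMT 1, 2, 3 or 5. Irf3, the constitutive factor behind interferon induction, did not overlap either, with 7.75 to 8.65 CPM against 9.20 to 10.3 CPM, but its log2 fold change of 0.21 did not pass (edgeR adjusted p 0.258), except without sedentary control 4 (0.0274). Irf5 had −0.57 without passing (0.0694), and passed without fatigued PBMT 3 (0.0478) or sedentary PBMT 6 (0.0179).

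Several targets and mediators of type I interferon were not called with all mice, unlike Irf9, Irf1 and Oas2 above. In the comparison of fatigued with sedentary PBMT muscle, Stat2 had a log2 fold change of 0.34, Irf7 0.46, Isg15 0.25, Rsad2 0.35 and Ifih1 0.03, none past the threshold in edgeR. Stat2 passed without fatigued PBMT 1, with 0.41 (edgeR adjusted p 0.0430), and Irf7 without fatigued PBMT 6, with 0.60 (0.0496). Stat2 also passed under 2 of 9 other settings of the processing. None of the 4 tested Ifit genes passed in any of the 5 comparisons, and their median log2 fold change was 0.10 in control and 0.12 in PBMT muscle for fatigued against sedentary mice. Isg15 had medians of 1.28 CPM in control and 0.926 CPM in PBMT mice at rest, and of 1.11 CPM in control and 1.28 CPM in PBMT mice after exhaustion.

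Genes upstream of the members were taken from lists of the pathway, and their calls stand beside 9.1% of all genes higher and 9.49% lower in control muscle, and 14.1% and 12.7% in PBMT muscle. Of 8 receptor and Janus kinase genes tested, 2 (25%) rose from sedentary to fatigued control muscle. They were the kinase gene Jak1, by 0.32 (edgeR adjusted p 0.00125), and Ifngr1, the ligand-binding chain of the interferon gamma receptor, by 0.27 (0.0209) log2 units. The same 2 rose in PBMT muscle, by 0.40 and 0.58. Ifngr1 had 23.9, 30.1 and 34.4 CPM in sedentary control, 20.8, 23.9 and 25.3 CPM in sedentary PBMT and 32.9, 35.8 and 41.2 CPM in fatigued control muscle. Without fatigued control 3, the mouse at 41.2 CPM, Ifngr1 missed the threshold in control muscle at an edgeR adjusted p of 0.0510.

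Of 17 sensor and adaptor genes, 1 (5.88%, beside 9.1% of all genes), Tlr4, rose in control muscle by 0.57 log2 units (edgeR adjusted p 0.0283) and passed in 22 of the 24 fits that left out 1 mouse, with 0.0731 without fatigued control 6 as the largest adjusted p. In PBMT muscle 4 (23.5%, beside 14.1% of all genes) rose, namely Ticam1, the adaptor of Tlr3 and Tlr4, by 0.69 (edgeR adjusted p 1.13e-04), Myd88 by 0.59, Tlr4 by 0.69 and the DNA sensor gene Cgas by 1.21. Cgas missed the threshold without fatigued PBMT 5, at an edgeR adjusted p of 0.0709, and without sedentary PBMT 1, 2, 3 or 6, at 0.0603, 0.0551, 0.0577 and 0.0502. For PBMT in sedentary muscle 0 of the receptor, sensor and regulator genes passed in edgeR and 0 in DESeq2, and at an unadjusted p under 0.05 Ifngr1, Ticam1 and Unc93b1, a chaperone of Toll-like receptors, were lower. Without sedentary control 4, Ifngr1 passed in edgeR with −0.41, from −0.35 with all mice (adjusted p 0.0283 and 0.296). For PBMT in fatigued muscle 0 passed in either tool, with Socs3 higher at an unadjusted p under 0.05.

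Of 11 negative regulators tested, 0 passed in control muscle with edgeR, and DESeq2 called 1, Socs3, higher. At an unadjusted p under 0.05, 2 of the 11 were higher in edgeR, beside 2293 of all 15108 genes tested. With 1 mouse left out, edgeR called 1 without fatigued control 4, fatigued PBMT 5 or sedentary control 4. In PBMT muscle 4 rose (36.4%, beside 14.1% of all genes; Socs3, Socs1, Samhd1 and Adar) and Pias1 fell. Socs3, a feedback inhibitor that Stat3 induces, had 1.44, 3.05 and 3.31 CPM in sedentary PBMT and 6.01, 11.1 and 30.9 CPM in fatigued PBMT muscle. It rose by 2.38 ± 0.49 (SE) log2 units (edgeR adjusted p 0.00118), with all 6 fatigued above all 6 sedentary mice. Socs1 rose by 1.63 (edgeR adjusted p 0.0425), but without fatigued PBMT 5, at 2.33 CPM against at most 0.470 CPM in the rest of its group, it had 0.70 and an edgeR adjusted p of 0.345. It also missed without sedentary PBMT 1, 2, 3, 4 or 5, at 0.0828, 0.0802, 0.0684, 0.0741 and 0.0856. Samhd1, with 0.42, had 0.24 without fatigued PBMT 5 and missed there only (0.0932). Adar passed in 12 of the 24 fits that left out 1 mouse, and its largest edgeR adjusted p was 0.113 without fatigued PBMT 5. The count of regulators that rose was 1 without fatigued PBMT 5 and 2 without sedentary PBMT 1, 2, 3, 4 or 5.

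Of 29 further interferon-stimulated genes tested, 5 (17.2%, beside 9.1% of all genes) rose in control muscle: Tor3a, Trim25, Cxcl10, Cmpk2 and Helz2. Cxcl10, a chemokine gene that interferon gamma induces, had 0.0213, 0.0218 and 0.0883 CPM in sedentary control and 0.169, 0.385 and 1.85 CPM in fatigued control muscle. Its log2 fold change was 4.24 ± 0.85 (SE) with an edgeR adjusted p of 0.00114, and sedentary levels were near 1 count per library. In PBMT muscle 10 of these genes (34.5%, beside 14.1% of all genes) rose and 1, Nampt, fell, though Nampt passed in 11 of the 24 fits that left out 1 mouse and had an edgeR adjusted p of 0.120 without fatigued PBMT 5. The smallest p-values among the 10 belonged to Tor3a, with 0.76 (edgeR adjusted p 7.15e-06), Lgals3bp with 0.60 (0.00103), Trim25 with 0.43 (0.00139), Epsti1 with 1.80 (0.00376) and Lgals9 with 0.63 (0.00408), which passed in all 24 such fits. Cxcl10 rose there by 1.83, but passed in only 6 of these fits: without fatigued PBMT 3 it had 1.48 and an edgeR adjusted p of 0.125, and without sedentary PBMT 3 it had 3.32 (8.35e-04). Cmpk2 passed in all 24 such fits in control muscle and Helz2 in 17, with an edgeR adjusted p of 0.128 for Helz2 without fatigued control 4. Of 5 further interferon-inducible GTPases tested, 1 (20%), Igtp, rose in control muscle by 0.41 (edgeR adjusted p 0.0456; 0.111 without fatigued control 5), and it passed in 16 of the 24 fits. There 4 of the 5 were positive, with a median of 0.41, whereas in PBMT muscle 3 of the 5 were negative, with a median of −0.29, and 0 passed in edgeR (0 at an unadjusted p under 0.05) or in DESeq2. Of 19 antigen presentation genes, 1 (5.26%) rose in control muscle, Tapbp, and 5 (26.3%) in PBMT muscle, Tapbp, H2-D1, Cd74, H2-Ab1 and H2-Eb1, of which the last 3 missed the threshold without fatigued PBMT 5, at edgeR adjusted p of 0.106, 0.131 and 0.148 in that order. That count of 5 was 2 without fatigued PBMT 5 or sedentary PBMT 1, 3, 4 or 5, 3 without fatigued PBMT 3 and 8 without sedentary PBMT 2. Tapbp passed in 18 of the 24 fits in control muscle, with an edgeR adjusted p of 0.0708 without sedentary control 6. The 2 further pyrin and HIN genes tested, Mndal and Aim2, did not pass in any of the 5 comparisons.

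Markers of cell types were read as further lists. The 10 macrophage and monocyte markers, none of them at 0 and Lyz2 the most abundant, summed to 60.7, 86.0 and 148 CPM (lowest, median, highest) in sedentary control and 41.5, 54.5 and 82.4 CPM in sedentary PBMT muscle. In fatigued control the sum was 88.2, 111 and 165 CPM, and in fatigued PBMT 63.7, 108 and 234 CPM. All 10 had negative log2 fold changes with PBMT in sedentary muscle, with a median of −0.74 (−0.42 without sedentary control 1), and 6 had an unadjusted p under 0.05. In edgeR 0 passed, whereas DESeq2 called 3 of them lower, namely C1qb, C1qc and Cd163, beside 0.238% of all genes. The complement gene C1qb, which resident macrophages express, had −0.95 (edgeR adjusted p 0.339). In fatigued against sedentary control muscle all 10 were positive, with a median of 0.43 (0.26 without fatigued control 5), and 1 rose, Cd163, which missed without fatigued control 5 or 6 or sedentary control 5. In fatigued against sedentary PBMT muscle 9 of the 10 rose (90%, beside 14.1% of all genes), all but Lyz2, with a median of 1.25 over the list, and without fatigued PBMT 5 the count was 6. With PBMT in fatigued muscle the median of the 10 was 0.07 and 2 were negative. Of the 7 interstitial mesenchymal markers all 7 were negative with PBMT in sedentary muscle, with a median of −0.23 and 0 passing in edgeR or DESeq2 (1 at an unadjusted p under 0.05). In fatigued against sedentary PBMT muscle 5 of the 7 rose (71.4%), with a median of 0.83, and in control muscle 1 rose, Ly6a, with a median of 0.52 and Cd34 negative at −0.07. The part of these cells in the values of the Ifi200 genes was not tested.

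The 4 neutrophil markers, led by S100a9, followed another pattern. Their sum was 20.5, 27.7 and 46.7 CPM in sedentary control and 1.10, 23.9 and 50.3 CPM in sedentary PBMT muscle, but 0.202, 0.262 and 2.51 CPM in fatigued control and 0.426, 1.00 and 1.89 CPM in fatigued PBMT muscle. All 4 fell between sedentary and fatigued mice in both comparisons, with median log2 fold changes of −5.54 and −4.58. Over the 6 T and NK cell markers the sum stayed between 0.0662 and 0.531 CPM. The 3 B cell markers summed to a median of 0.314 CPM in sedentary PBMT muscle (0.129 to 0.407) and of 0.108, 0.101 and 0.0813 CPM in sedentary control, fatigued control and fatigued PBMT muscle, and none of them passed the filter of edgeR. The part of neutrophils in the results was not tested either.

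Markers of muscle fibres and other resident cells were read as well. All 8 fibre markers were positive in fatigued against sedentary muscle, with 5 of 8 (62.5%, beside 9.1% of all genes) rising in control and 3 (37.5%, beside 14.1%) in PBMT muscle, and their sum had a mean of 141600 CPM in sedentary control and 189400 CPM in fatigued control muscle. The 5 adipocyte markers were positive in both, with 0 passing in control muscle in edgeR or DESeq2 (1 at an unadjusted p under 0.05). In PBMT muscle 1 rose, Cidec, with a log2 fold change of 1.56 (edgeR adjusted p 0.0326). It missed without fatigued PBMT 5, with 1.00 (0.151), without fatigued PBMT 3 (adjusted p 0.0565), and without sedentary PBMT 1 (1.52), 2 (1.48), 3 (1.40) or 5 (1.37). Of the 2 satellite cell markers tested, Pax7 fell in PBMT muscle by 0.67 log2 units (edgeR adjusted p 0.0162). The other was positive there, at 0.28, without passing. In control muscle 1 of the 2 was positive and 1 negative, at 0.34 and −0.06, and 0 passed. Of 5 endothelial markers, 1 (20%, beside 9.1% of all genes) rose in control muscle. In PBMT muscle 2 (40%, beside 14.1%) rose and 1 (20%, beside 12.7%) fell. The 1 keratinocyte marker tested had −0.47 in control muscle without passing and −1.52 in PBMT muscle (edgeR adjusted p 0.00493). Sedentary PBMT 4 had a keratinocyte sum of 25.5 CPM, where the median of its group was 2.51 CPM. What these lists contribute to the members' values was not tested.

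**Figure D3:**
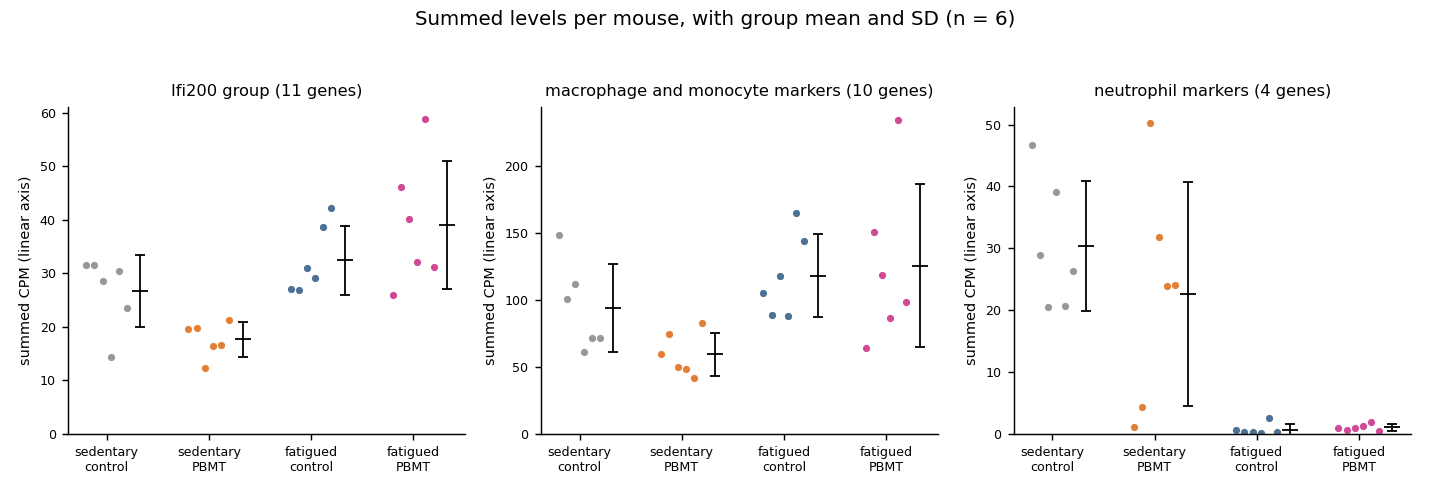
Summed CPM per mouse of the 11 Ifi200 genes, of 10 macrophage and monocyte markers and of 4 neutrophil markers. Points are mice and bars with whiskers the mean and SD of 6 mice. The Ifi200 sum and the macrophage sum have their lowest medians in sedentary PBMT muscle, 18.1 and 54.5 CPM, while the neutrophil sum is lowest in fatigued muscle.

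Genes were ranked by how closely their log2 CPM followed Ifi205 across the 24 mice after each group's mean was taken off. Over 15107 genes the median Pearson r was 0.00, and the closest was Ifi207 with r = 0.864 and Spearman's rho = 0.901, or r = 0.885 without sedentary control 4 and fatigued PBMT 5. The next were Fcgr2b (r = 0.845, rho = 0.808), Ms4a4a (0.840 and 0.870), Fcer1g (0.838 and 0.845) and Lilr4b (0.837 and 0.805), whose r without these mice was 0.769, 0.781, 0.766 and 0.755. Fcgr2b and Fcer1g encode chains of Fc receptors. Among members the next were Ifi204 with r = 0.787, Ifi209 with 0.746 and Ifi211 with 0.741, while Ifi203 had 0.495. Taking off the group means also removed the mean difference between the projects, while depth still differed between mice of a group. These values are a description without a test.

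The Ifi200 genes lie together on chromosome 1 at chr1:173468485-174031810 of GRCm38, a stretch of 563 kb with 12 protein-coding genes, the 11 members and Mndal. Ifi205 lies at its far end, and the annotated span of Mndal encloses Ifi211 and most of Ifi203. Sequence is partly shared within the cluster: 56.9% of the 100-base stretches of Ifi211 also occur in another gene, 37.2% in Ifi205, and 15% of those of Ifi205 in Ifi211. For Ifi204 the shared proportion was 10.7%, and for Ifi203 2.84%. The values of Ifi205 and Ifi211 may therefore share reads.

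**Figure D4:**
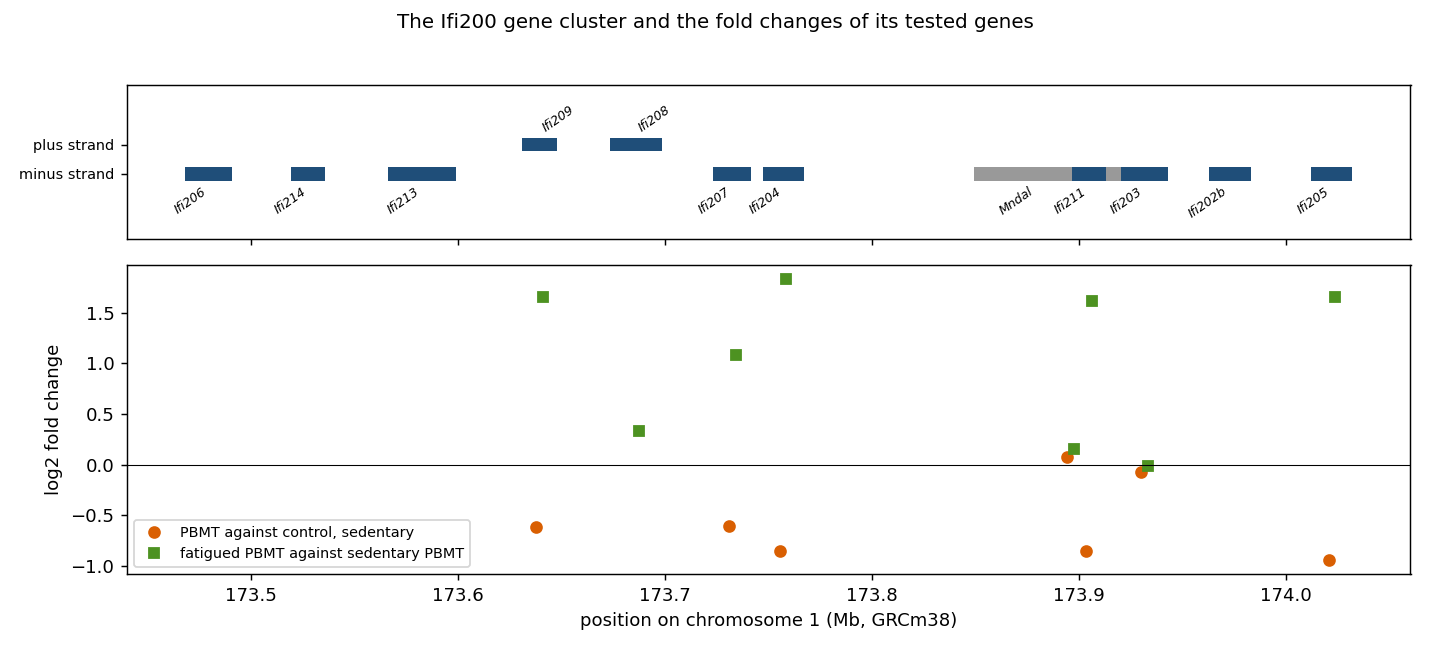
Map of the Ifi200 cluster on chromosome 1 of GRCm38 with its 12 protein-coding genes drawn to scale, and their log2 fold changes where tested. Fatigued against sedentary PBMT muscle gave 1.66 for Ifi205, 1.84 for Ifi204 and 1.61 for Ifi211, beside 0.15 for Mndal and −0.02 for Ifi203 in the same region.

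Promoters of the members were read from RefSeq sequences of GRCm38.p6, 300 bases each, from 250 before to 50 after the start. Of the 79 members 64 had an entry, with 79 promoters in all. The letters GAAANNGAAA, the core of the interferon-stimulated response element, occurred on either strand in 33 of these (41.8%), against 1131 of all 32851 promoters (3.44%). The letters TTCNNNGAA, the core of Stat binding sites, occurred in 14 (17.7%), against 2726 (8.3%). Matches of these motifs may overlap, and overlaps were not counted. By family, 5 of 6 Ifit genes, 5 of 5 Gbp genes, 2 of 2 Irgm genes, 4 of 8 Oas genes, 2 of 6 Stat genes and 1 of 8 Irf genes with an entry held GAAANNGAAA. So did Ifih1, 2 of 7 Ifitm genes, 0 of 3 genes for Irf2-binding proteins and 2 of 8 other inducible genes. Counted by gene, 32 of the 64 members with an entry held it.

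In the Ifi200 group 8 of the 10 genes with an entry held GAAANNGAAA, and Ifi209 and Ifi202b did not. The Ifi204 promoter had no entry. The sequences of Ifi205, Ifi207 and Ifi211, which all rose in fatigued against sedentary PBMT muscle, are shown beside 1 of the entries of Ifi203, which was called in none of the comparisons, with the motif in capitals and read 5′ to 3′ on the minus strand. They are at chr1:174031706-174032005 for Ifi205, chr1:173741760-173742059 for Ifi207, chr1:173912997-173913296 for Ifi211 and chr1:173942443-173942742 for Ifi203. Ifi205 holds the motif on both strands, and in the other 3 genes it lies 35 to 41 bases before the start. The shown entry of Ifi203 carries GAAATCGAAA as Ifi207 does, while its other entry, at chr1:173942623-173942922, holds no GAAANNGAAA, and a match is a description of letters and not a shown binding site.
Ifi205: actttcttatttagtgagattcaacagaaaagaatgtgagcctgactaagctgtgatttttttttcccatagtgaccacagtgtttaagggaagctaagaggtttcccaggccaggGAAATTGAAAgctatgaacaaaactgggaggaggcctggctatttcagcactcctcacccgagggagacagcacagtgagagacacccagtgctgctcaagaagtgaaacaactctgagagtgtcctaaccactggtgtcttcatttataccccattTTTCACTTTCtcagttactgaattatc
Ifi207: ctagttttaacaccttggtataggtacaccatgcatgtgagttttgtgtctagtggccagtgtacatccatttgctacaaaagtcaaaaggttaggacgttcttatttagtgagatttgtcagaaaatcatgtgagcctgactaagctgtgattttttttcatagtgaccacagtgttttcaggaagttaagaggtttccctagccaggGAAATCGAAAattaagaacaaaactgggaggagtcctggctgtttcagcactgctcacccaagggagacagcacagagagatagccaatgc
Ifi211: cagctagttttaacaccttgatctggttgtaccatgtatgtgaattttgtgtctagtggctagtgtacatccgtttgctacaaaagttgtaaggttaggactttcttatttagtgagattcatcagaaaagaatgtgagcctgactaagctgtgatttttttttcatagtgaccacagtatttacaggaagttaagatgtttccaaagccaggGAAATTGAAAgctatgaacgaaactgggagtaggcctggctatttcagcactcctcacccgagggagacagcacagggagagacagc
Ifi203: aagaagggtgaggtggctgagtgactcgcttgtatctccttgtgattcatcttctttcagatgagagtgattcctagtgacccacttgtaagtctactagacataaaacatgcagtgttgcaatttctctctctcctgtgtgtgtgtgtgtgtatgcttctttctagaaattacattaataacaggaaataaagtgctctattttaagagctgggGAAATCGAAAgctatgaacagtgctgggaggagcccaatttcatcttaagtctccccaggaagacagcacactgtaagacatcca

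Individual mice stood high across the members in every group. Among the 59 tested members, fatigued control 5 was the highest of its group for 41 (69.5%, against 22% of all genes tested), and fatigued PBMT 5 for 39 (66.1%, against 26.1%). Sedentary control 5 was the highest of its group for 25 members (42.4%, against 10.3%) and sedentary PBMT 2 for 25 (42.4%, against 25.7%). Fatigued PBMT 5 also had the highest sum of 7 interstitial mesenchymal markers, 2245 CPM, where the median of its group was 837 CPM. The sum of the 10 macrophage and monocyte markers was highest of its group in fatigued PBMT 5, at 234 CPM (group median 108). It was also highest in fatigued control 5, at 165 CPM (group median 111), but not in sedentary control 5 or sedentary PBMT 2. The part of fatigued PBMT 5 in the members' values beyond the fits without this mouse was not tested. For Gbp4, a guanylate-binding protein, fatigued control 5 had 12.2 CPM and the next mouse of its group 5.17 CPM, and for Gbp2 it had 15.7 CPM and the next 8.36 CPM. Sedentary control 5 was the highest of its group for Ifit3 with 8.73 CPM and for Irf7 with 6.32 CPM.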

How the data were processed

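The submitters trimmed reads with Trimmomatic, aligned them to GRCm38 with STAR 2.7.1a and counted genes with featureCounts 1.6.0. The counts were used as deposited, matched to GENCODE M21 by gene identifier, and normalised by TMM. Tests were edgeR 4.0.16 quasi-likelihood tests with robust fitting and Benjamini-Hochberg adjustment over all genes passing filterByExpr (minimum count 10). PBMT comparisons were fitted in the 12 mice of 1 project, and the difference and exhaustion comparisons in all 24 mice. DESeq2 1.42.0 was the alternative. Named were all Ifi200 genes, the main mediators, members (up to 10) and genes of the pathway lists (up to 5) past the threshold per comparison and direction, the largest changes, the most abundant member of each family and the 5 genes most like Ifi205. Results of 2 tested members are not reported here, so they were taken out of the genes named; all counts and medians over the members include them, and the counts of flagged values and of single-gene values do not. Values with "1 mouse left out" repeat the whole fit. The members and the lists were chosen with earlier results of these data known. No 2 of the 24 libraries were copies of each other, as all 276 pairs differed by far more than counting error.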

Additional observations from a re-analysis of the deposited data

Results flagged for a closer look

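In each group of 6 mice the highest and the lowest value of a gene was compared with its neighbour, and a mouse is given here when its gap to the next value took an unusually large part of the group's whole range (Dixon's 95% limit). Of 290 groups of values from 73 genes, 55 (19%) passed this limit, where chance gives about 1 in 20 for independent, normally spread values. These values are skewed and shared between genes of a mouse, and some rest on 1 count, so the excess over that share was not interpreted. Values are CPM, and the mouse was the highest of its group unless a low value is stated.

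Fatigued PBMT 5 accounted for 16 of the 55. Among the Ifi200 genes it had 6.54 CPM of Ifi211 (next mouse 3.75), 0.338 of Ifi206 (next 0.0587) and 0.323 of Ifi213 (next 0.124). Among the other members it had 16.5 CPM of Irf1 (next 10.8), 8.19 of Irf9, 37.0 of Ifitm3, 0.553 of Ifitm6 and 22.4 of Irgm2. Among regulators and further stimulated genes it had 9.92 CPM of Myd88, 36.5 of Samhd1, 2.33 of Socs1 (next 0.470), 17.1 of Lgals3bp and 1.32 of Epsti1. Of the genes most like Ifi205 it had 6.51 CPM of Ms4a4a, 5.07 of Fcer1g and 1.64 of Lilr4b.

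Fatigued control 5 accounted for 9. It had 12.2 CPM of Gbp4 (next 5.17), 15.7 of Gbp2 (next 8.36), 1.81 of Oas2 and 34.2 of Ifitm3. Its level was 0.310 CPM for Ifitm6, 0.179 for Ifi213, 8.19 for Myd88, 16.9 for Socs3 (next 5.58) and 3.25 for Fcer1g.

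Sedentary control 5 had 6.11 CPM of Stat2, 6.32 of Irf7, 2.47 of Isg15, 8.73 of Ifit3 (next 3.84) and 0.322 of Ifi213. Sedentary control 4, the mouse with few mitochondrial counts, was low for Ifi207 with 2.09 CPM (next 5.80) and for Irf2 with 13.0 CPM. It was high for Irf3 with 17.5 CPM (next 9.64), Irf2bp2 with 21.01 CPM and Socs1 with 0.659 CPM.

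Fatigued PBMT 3 had 60.7 CPM of Irf2bp2 (next 30.0), and fatigued PBMT 6 had 0.411 CPM of Ifi208. Fatigued control 6 had 4.22 CPM of Ifi211, and fatigued control 3 had 41.2 CPM of Ifngr1. Fatigued control 2 had 0.0903 CPM of Ifi202b and 0.0181 of Ifi214, with 0 in the rest of its group for both, and was low for Ticam1 with 2.02 CPM. Sedentary PBMT 4 had 0.0197 CPM of Ifi202b, also with 0 in the rest, and was low for Gbp4 with 2.74 CPM.

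Sedentary PBMT 2 had 0.0817 CPM of Ifi214, 1.45 of Isg15 and 10.4 of Lgals3bp. Sedentary PBMT 3 had 0.794 CPM of Cxcl10 (next 0.118), sedentary PBMT 5 had 8.54 CPM of Helz2, and sedentary PBMT 1 had 0.401 CPM of Epsti1. Sedentary PBMT 6 had 0.500 CPM of Socs1 and 1.74 of Fcer1g. Sedentary control 6 had 0.0883 CPM of Cxcl10 and was low for Myd88 with 3.73 CPM, and sedentary control 3 was low for Jak1 with 112 CPM.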

How the results depend on the processing

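The counts of members called moved beyond 1.5 times in few fits. For PBMT in sedentary muscle edgeR called 0 of 57 members, but 1 with no filter, 3 with DESeq2 and 2 with sedentary control 4 and fatigued PBMT 5 both left out, an alternative chosen after seeing the data. With 1 mouse left out, the count ran from 0 to 2 in that comparison and stayed at 0 for PBMT in fatigued muscle and for the difference. For fatigued against sedentary control muscle it was 8, but 5 with no filter, and ran from 5 (without fatigued control 1 or 5, or sedentary control 4 or 5) to 10 with 1 mouse left out. In PBMT muscle it was 17 and ran from 15 to 20. The cause of these moves was not tested.

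Among the Ifi200 genes and the named genes with an unadjusted p under 0.05, signs reversed for Ifi203, Ifi208 and Ifi211, none of them called there. Other values near 0 reversed as well, such as Irf7 for fatigued against sedentary control muscle, at 0.02 with all mice and −0.11 without fatigued control 5. For Ifi211 with PBMT in fatigued muscle, the log2 fold change was 0.23 with all mice, −0.0193 with sedentary control 4 and fatigued PBMT 5 left out, and ran from −0.0193 to 0.34 with 1 mouse left out. With 1 mouse left out, Ifi203 ran from −0.22 to 0.043 for PBMT in sedentary muscle and from −0.16 to 0.13 for fatigued against sedentary PBMT muscle, and Ifi208, at 0.33 with all mice, from −0.26 to 0.52 in the latter. The cause was not tested. The members' median log2 fold changes moved by less than 0.167, the SD between mice of the members' median deviation from the group, in all 44 values from other settings and all 96 with 1 mouse left out. This limit is wider than the medians of both PBMT comparisons and of their difference, so it says little about those, and the median for PBMT in fatigued muscle went from 0.05 to −0.03 without fatigued PBMT 5. Of single-gene values under other settings, 954 kept direction and side of the threshold, 37 newly passed and 59 no longer did.

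Replicate numbers were not taken to pair the mice, as no label ties equal numbers to each other. Of pairs with equal numbers, 4 of 6 in fatigued and 0 of 6 in sedentary muscle correlated over 0.1. Whether fatigued mice of equal number shared a treadmill session was not tested. A replicate block left the counts of members called at 0 for both PBMT comparisons and the difference, 8 in control and 17 in PBMT muscle, or 0, 8 and 21 with the trend on exon length removed as well. Mice of equal number correlated, after group means were removed, at −0.07 to 0.07 in sedentary and −0.08 to 0.33 in fatigued muscle, and 1 of 12 sedentary and 6 of 12 fatigued mice correlated best with their own number.

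Depth limits the 20 untested members, of which 4 had over 100 counts in all. Intervals and limits from counts cover counting error only. The annotation release and the strand setting of the deposited counts were not given in the sources at hand. Exhaustion, run time and sequencing project are confounded, and among fatigued mice so are light and run time.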
